A study of Mus musculus with 2 samples.

Results

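The 9 transcription factors described here, Spi1, Irf8, Sall1, Sall3, Mef2a, Mef2c, Maf, Runx1 and Cebpa, were taken by symbol from the 32285 genes measured in single EYFP+ cells of the adult mouse dentate gyrus (DG), and all 9 were found. The cells came from 2 groups of littermates that both carried NestinCreERT2+/- and ROSA-LoxSTOPLox-EYFP+/+ and both received tamoxifen (TAM; 180 mg/kg/d for 5 d, from 7 to 10 wk of age): WT mice had Vegfa wt/wt, and inducible knockdown (iKD) mice had Vegfa lox/lox. Female and male mice were combined, the strain of the crosses is not given in the sources used here, and cells were sorted 21 d after TAM, when the Nestin promoter should have marked neural stem and progenitor cells (NSPCs) and their progeny. Cells of 5 mice were pooled into 1 library per genotype, giving 5543 WT and 5261 iKD cells in 12 clusters that the authors named; the comparisons below use the 8 large clusters qNSC1, qNSC2, aNSCs, NSPCs, IPC1, IPC2, eNB and NB (5283 WT and 5009 iKD cells), which the names assign to quiescent and active neural stem cells, intermediate progenitor cells and neuroblasts. The names qNSC1 and qNSC2 are used as the deposited tables give them; the study's own tally of cells has these 2 names the other way round, while its marker list has them as here.

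Microglia, the macrophages that live in the brain, arise from yolk sac progenitors and keep their identity through a set of transcription factors. Spi1 (PU.1) is an ETS family factor that every macrophage depends on, and Irf8 is the interferon regulatory factor that pairs with it on DNA. Runx1 and Cebpa act in myeloid progenitors and persist in mature cells. Sall1 is the zinc finger factor that separates microglia from other macrophages, Sall3 is its close relative, and Mef2a, Mef2c and Maf are broadly acting factors that in microglia are tied to the mature, homeostatic state.

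Promoter sequence was searched for the letters that these factors read. RefSeq promoters of GRCm38.p6, each 250 bases before to 50 bases after a transcription start, were used for 6 of the 9 factors (12 promoters). No promoter of Spi1, Maf or Sall3 was among these 12. On either strand, the PU.1 motif GAGGAAGT was in 3.20% of all 32851 promoters, the ETS-IRF composite (GGAA and GAAA with any 2 bases between them) in 2.72%, the interferon element (GAAA, any 2 bases and GAAA) in 3.44%, the C/EBP palindrome TTGCGCAA in 0.183%, the RUNX motif TGTGGT in 16.8% and the MEF2 motif TAAAAATA in 2.72%; the ETS-IRF and interferon motifs can overlap. Among the 12 promoters, 2 held a match, and in both the match was to the gene's own family: Mef2a held 1 MEF2 motif, and 1 of the 2 Runx1 promoters held 2 RUNX motifs on the opposite strand. They are shown because they were the only matches among these 12 promoters, with the matched letters in capitals. A match is a description of these letters and not evidence of a bound site.

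Mef2a promoter, chr7:67372809-67373108, minus strand: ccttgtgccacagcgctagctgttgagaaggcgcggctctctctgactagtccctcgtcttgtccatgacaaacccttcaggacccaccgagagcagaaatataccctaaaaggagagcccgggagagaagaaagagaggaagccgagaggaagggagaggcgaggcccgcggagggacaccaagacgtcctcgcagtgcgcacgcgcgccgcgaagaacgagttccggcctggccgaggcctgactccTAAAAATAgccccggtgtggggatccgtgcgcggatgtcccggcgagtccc
Runx1 promoter, chr16:92826025-92826324, minus strand: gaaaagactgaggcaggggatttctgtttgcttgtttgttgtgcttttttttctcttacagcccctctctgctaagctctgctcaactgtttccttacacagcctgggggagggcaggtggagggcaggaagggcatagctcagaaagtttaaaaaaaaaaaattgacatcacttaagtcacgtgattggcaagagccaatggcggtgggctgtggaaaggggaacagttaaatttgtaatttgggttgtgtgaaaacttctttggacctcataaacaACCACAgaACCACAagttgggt

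Before the factors are described, the labels were set against markers. In each of the 8 clusters, all 10 microglia markers (such as Siglech, Gpr34, Csf1r, P2ry12 and C1qb) were present in over 50% of cells, and their summed level was 369 to 469 counts per 10,000 UMIs. The 9 neural stem cell markers summed to 0.0590 to 0.419 and the 9 neuroblast and granule neuron markers to 0.226 to 0.294 in the same clusters, and none of either list was in over 50% of cells. The 6 border macrophage markers summed to at most 0.206, and the 8 monocyte, neutrophil and lymphocyte markers to at most 0.204. The 9 markers of astrocytes, oligodendrocytes, endothelial and mural cells summed to 2.60 to 5.16, of which 1, the glutamate transporter gene Slc1a3 (3.42 over the 8 clusters), was in over 50% of cells. The 8 choroid plexus markers summed to at most 0.22 in the 8 clusters of the WT library and to 10.2 to 12.3 in those of the iKD library, where 1 of them, the transthyretin gene Ttr, was in over 50% of cells. The cluster names are therefore used below only as names. Nes, the gene whose promoter drives the recombinase, had a UMI in 0.984% of WT and 0.918% of iKD cells of the 8 clusters, and Vegfa, the targeted gene, in 79 of the WT cells (level 0.0219) and 47 of the iKD cells (level 0.0133); the libraries tag the 3′ end of transcripts, so the Vegfa value does not check the deletion. The libraries held 44142118 WT UMIs (median 8051 per cell) and 37451839 iKD UMIs (median 7080), and shared 9 cell barcodes.

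All 9 factors were detected in most cells of the 8 clusters. A level here is the mean over cells of counts per 10,000 UMIs, its interval is the exact 95% Poisson interval of the summed UMIs, and a share of cells has an exact 95% binomial interval; both cover counting error only. Mef2a had a level of 15.9 (15.8 to 16.0) and at least 1 UMI in 99.9% of the 10292 cells, and Mef2c a level of 15.8 (15.7 to 15.8) and 99.8% of cells. Maf (level 7.17) was in 96.8% of cells, Spi1 (4.24) in 93.5%, Runx1 (5.71) in 93.1% and Irf8 (3.78) in 91.3%. Sall1 (3.64) was in 88.8%, Cebpa (2.07) in 66.6% and Sall3 (2.94) in 62.4%. Levels of different genes are not ranked, because 3′ counts were not corrected for length and may include reads from introns.

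Shares rise with depth, so each cell was also drawn down to 4500 UMIs, which left out 263 WT and 357 iKD cells of all clusters. At that common depth the share of cells with a UMI was 99.5% for Mef2a, 99.4% for Mef2c, 91.9% for Maf, 85.6% for Runx1, 83.7% for Spi1, 78.9% for Irf8, 76.7% for Sall1, 51.9% for Cebpa and 51.0% for Sall3. Cebpa and Sall3 were thus missing from about as many cells as held them at this depth, and both MEF2 factors from almost none. A median cell carried 7 of the 9 factors at this depth, in every one of the 8 clusters and in both genotypes. All 9 were found together in 1059 of 9953 cells (10.6%), from 5.93% in qNSC2 to 13.2% in eNB, and 6 cells (0.0603%) held 3 or fewer.

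Pairs of factors were also counted in the same cell. Spi1 and Irf8, which form one complex on DNA, were both detected in 66.3% of cells (65.4 to 67.2) at the common depth, and Irf8 was in 79.2% of cells with Spi1 and 77.5% of cells without it. Sall1 and Sall3 were both in 39.3% (38.3 to 40.3), and Sall3 was in 51.3% of cells with Sall1 and 50.2% of cells without. Mef2a and Mef2c were both in 98.9%, and 1 cell had neither. Spi1 and Cebpa were both in 43.6%. Runx1 was in 85.5% of cells with Spi1 and 86.2% of cells without. For Spi1 with Irf8, Spi1 with Runx1 and Sall1 with Sall3, cells with and without one factor thus held the other at nearly the same share. The shares lay further apart for Maf with Sall1, where Sall1 was in 77.0% of cells with Maf and 72.5% of cells without.

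The number of UMIs per cell set Sall3 apart from the other factors. Sall3 and Irf8 had mean counts of 1.34 and 1.68 UMIs per cell at the common depth, but 49.0% of cells had no Sall3 UMI while 7.57% had 5 or more and 138 cells had 10 or more, with 27 the most. For Irf8, 21.1% of cells had none, 3.97% had 5 or more and 2 cells had 10 or more. The variance over the mean was 3.83 for Sall3, against a median of 1.15 (quartiles 1.08 and 1.26) over the 2979 genes with a mean of at least 0.3, of which 99.1% had a smaller value. Spi1 (1.12), Irf8 (1.17) and Sall1 (1.21) were within those quartiles, and Cebpa (1.64), Maf (1.65), Mef2a (1.82), Runx1 (1.93) and Mef2c (2.01) lay above them.

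The uneven spread of Sall3 was found in every group of cells examined. Cells were scored as female or male by Xist against Ddx3y, Eif2s3y, Uty and Kdm5d. The variance over the mean of Sall3 was 3.74 in WT female cells, 3.54 in WT male cells, 4.07 in iKD female cells and 3.81 in iKD male cells, and the share of cells with 5 or more UMIs was 7.55%, 6.30%, 8.19% and 7.63%. Among clusters it was 2.35 in NB and 4.54 in qNSC1. The 4 groups by sex and genotype thus differed little in a value that lay far above that of Irf8 in each of them (1.13 to 1.19).

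**Figure D1:**
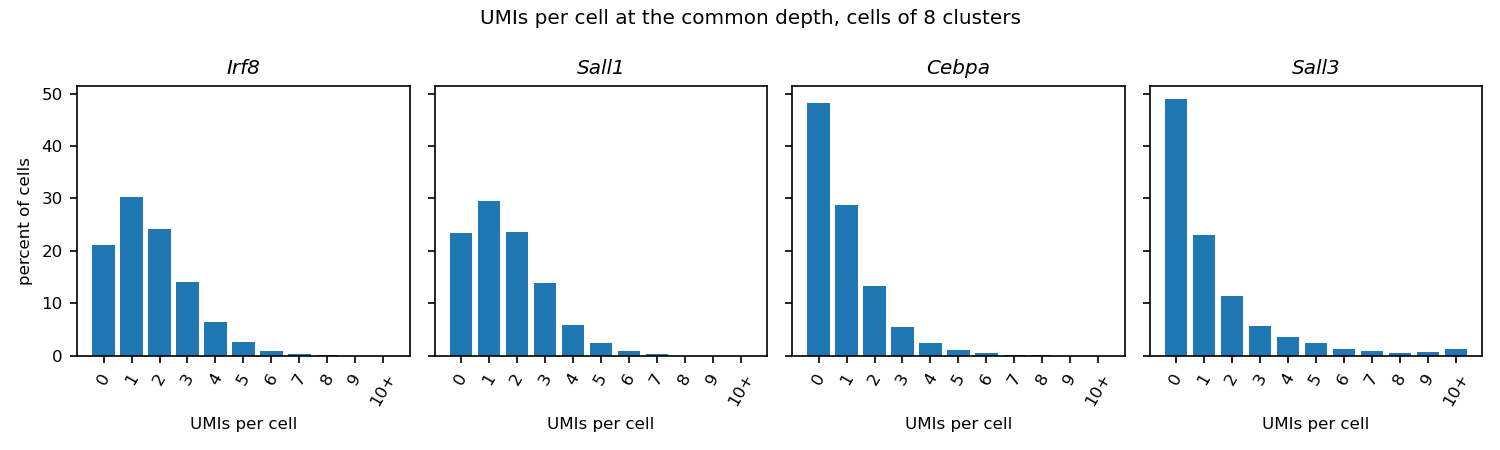
Percent of cells (vertical axis) by the number of UMIs per cell (horizontal axis, 10+ for 10 or more) for Irf8, Sall1, Cebpa and Sall3 in the 9953 cells of 8 clusters drawn to 4500 UMIs. Irf8 and Sall1 peak at 1 UMI, Cebpa and Sall3 at 0, and Sall3 alone has a visible bar at 10 or more (138 cells).

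Between the 8 clusters the factors varied less than 2-fold. The highest cluster level over the lowest was 1.98 for Sall3, 1.81 for Maf, 1.76 for Cebpa, 1.72 for Sall1, 1.46 for Runx1, 1.43 for Mef2a, 1.26 for Mef2c, 1.22 for Irf8 and 1.21 for Spi1. None of the 9 reached 2-fold, while 20.4% of the 10821 genes that reached a level of 0.05 in some cluster did, and 13.9% of those that reached 0.5. The clusters were built from these same cells, so the folds are a description and no test. With both libraries together, Spi1 and Irf8 varied least of the 9. Of the genes, 4.12% had a smaller fold than Spi1 and 4.77% a smaller fold than Irf8. Among genes that reached a level of 0.5, these shares were 6.02% and 6.87%. Within each library Mef2c varied less than Irf8 (1.29 against 1.31 in WT, 1.24 against 1.25 in iKD). Spi1 stayed the lowest of the 9, at 1.23 in both, but with IN1 and IN2 added its fold was 2.21.

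Spi1 was highest in NSPCs, at 4.71 in WT and 4.82 in iKD, and its other values lay between 3.85 (WT qNSC2) and 4.38 (iKD aNSCs, WT IPC1). Irf8 ran from 3.22 in WT IPC2 to 4.47 in iKD aNSCs, and for 6 of its 7 neighbouring pairs of clusters the WT and iKD values overlapped, so that its order was hardly resolved. For Spi1 the neighbours overlapped in 5 of 7 pairs.

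Sall1, the factor most specific to microglia, was lowest in qNSC1 in both genotypes (2.03 in WT, 2.58 in iKD), then qNSC2 (2.46 and 2.96) and aNSCs (2.95 and 3.11). It was 3.52 and 3.55 in NSPCs, 3.51 and 3.83 in IPC2, 3.72 and 3.84 in NB, 3.88 and 3.71 in eNB, and 3.96 and 4.06 in IPC1, where it was highest. The 3 clusters named as stem cells therefore held less Sall1 than the other 5, with no overlap between any of their 6 values and the other 10. At the common depth 44.6% of qNSC1 cells had no Sall1 UMI, against 22.2% in eNB and 20.1% in NB.

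Genes linked to Sall1 were low in the same cluster. Of 6 such genes, 3 passed 2-fold between clusters, and each was lowest in qNSC1 and next in qNSC2: Slc2a5, a fructose transporter, ran from 1.40 to 3.80 (2.71-fold), Tmem119, a surface protein of mature microglia, from 6.76 to 14.5 (2.15-fold), and P2ry12, the purinergic receptor that steers microglial processes, from 16.3 to 33.0 (2.03-fold). Siglech (1.84-fold) was also lowest in qNSC1, and Gpr34 (1.48-fold) was lowest in qNSC2. Of 8 genes linked to Spi1 or Irf8, among them Csf1r, Cx3cr1 and Tyrobp, 0 passed 2-fold, and the median fold was 1.40. Yet 5 of these 8 were lowest in qNSC1 as well: Csf1r (20.7, against 28.3 in NB), Cx3cr1 (31.3 and 43.6), Itgam (4.57 and 7.64), Csf3r (2.53 and 3.57) and Aif1 (5.16, against 6.64 in NSPCs). The low in qNSC1 is thus not particular to the genes linked to Sall1.

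Sall3 followed a different order from Sall1. It was highest in eNB (3.59 in WT, 3.50 in iKD) and IPC1 (3.24 and 3.31) and lowest in NB (1.65 and 1.91), a cluster in which Sall1 was near its top; the Pearson correlation of the 2 relatives over the 8 cluster levels was 0.30, a description over 8 points that share libraries. Values for qNSC1 (1.94 and 2.68) and qNSC2 (2.37 and 2.52) came next above NB, and those for NSPCs (2.59 and 3.11), IPC2 (2.68 and 3.07) and aNSCs (2.95 and 3.05) lay between.

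Maf was lowest in the clusters named as quiescent and highest in NB. It was 4.82 in WT and 4.47 in iKD qNSC2, 5.37 and 5.23 in qNSC1, 6.45 and 7.02 in aNSCs, 7.07 in both genotypes in NSPCs, and 7.10 to 7.69 over both genotypes in IPC1, IPC2 and eNB. In NB it reached 8.66 and 8.07. It was the best resolved of the 9, with 2 of 7 neighbouring pairs overlapping.

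Cebpa was lowest in NB (1.51 in WT, 1.32 in iKD) and highest in NSPCs (2.69 and 2.24), followed by eNB (2.50 and 2.10). Its other values lay between 1.60 and 2.49, and 6 of 7 neighbouring pairs overlapped.

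Mef2a and Runx1 shared a low in NSPCs. Mef2a was 12.01 in WT and 12.7 in iKD NSPCs and 12.9 and 12.1 in qNSC1, against 14.7 to 17.7 in the other 6 clusters. Runx1 was 4.42 and 4.21 in NSPCs and at least 5.19 elsewhere, with the highest value in WT qNSC1 (7.01; 5.78 in iKD). Mef2c was 13.0 to 15.6 in qNSC1, qNSC2, aNSCs and NSPCs and 15.8 to 17.4 in IPC1, IPC2, eNB and NB.

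Measures of the cells themselves also differed between the clusters. Genes that span at least 100 kb had a median level in NSPCs that was -0.32 (log2) against the 8 clusters together, and in qNSC1 -0.23, while genes under 10 kb stood at 0.21 and 0.15; Mef2a, Mef2c and Runx1 are the 3 factors whose genes span over 100 kb. All 3 were low in NSPCs. In qNSC1 the longest of them, Runx1, was at its highest in WT (7.01) but not in iKD (5.78), where aNSCs were highest (6.25). The share of cells scored female was 6.91% in IPC2, 48.0% in aNSCs and 70.3% to 78.1% in qNSC1, qNSC2, NSPCs and NB, and 91.7% in IPC1 and 94.6% in eNB. The part of gene span and of sex in the differences between clusters was not tested. Within cells scored female the fold of Sall3 over clusters was 2.10 and within cells scored male 2.11, and Sall3 was the only one of the 9 past 2-fold in either, beside 32.7% of all genes in female and 45.9% in male cells.

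**Figure D2:**
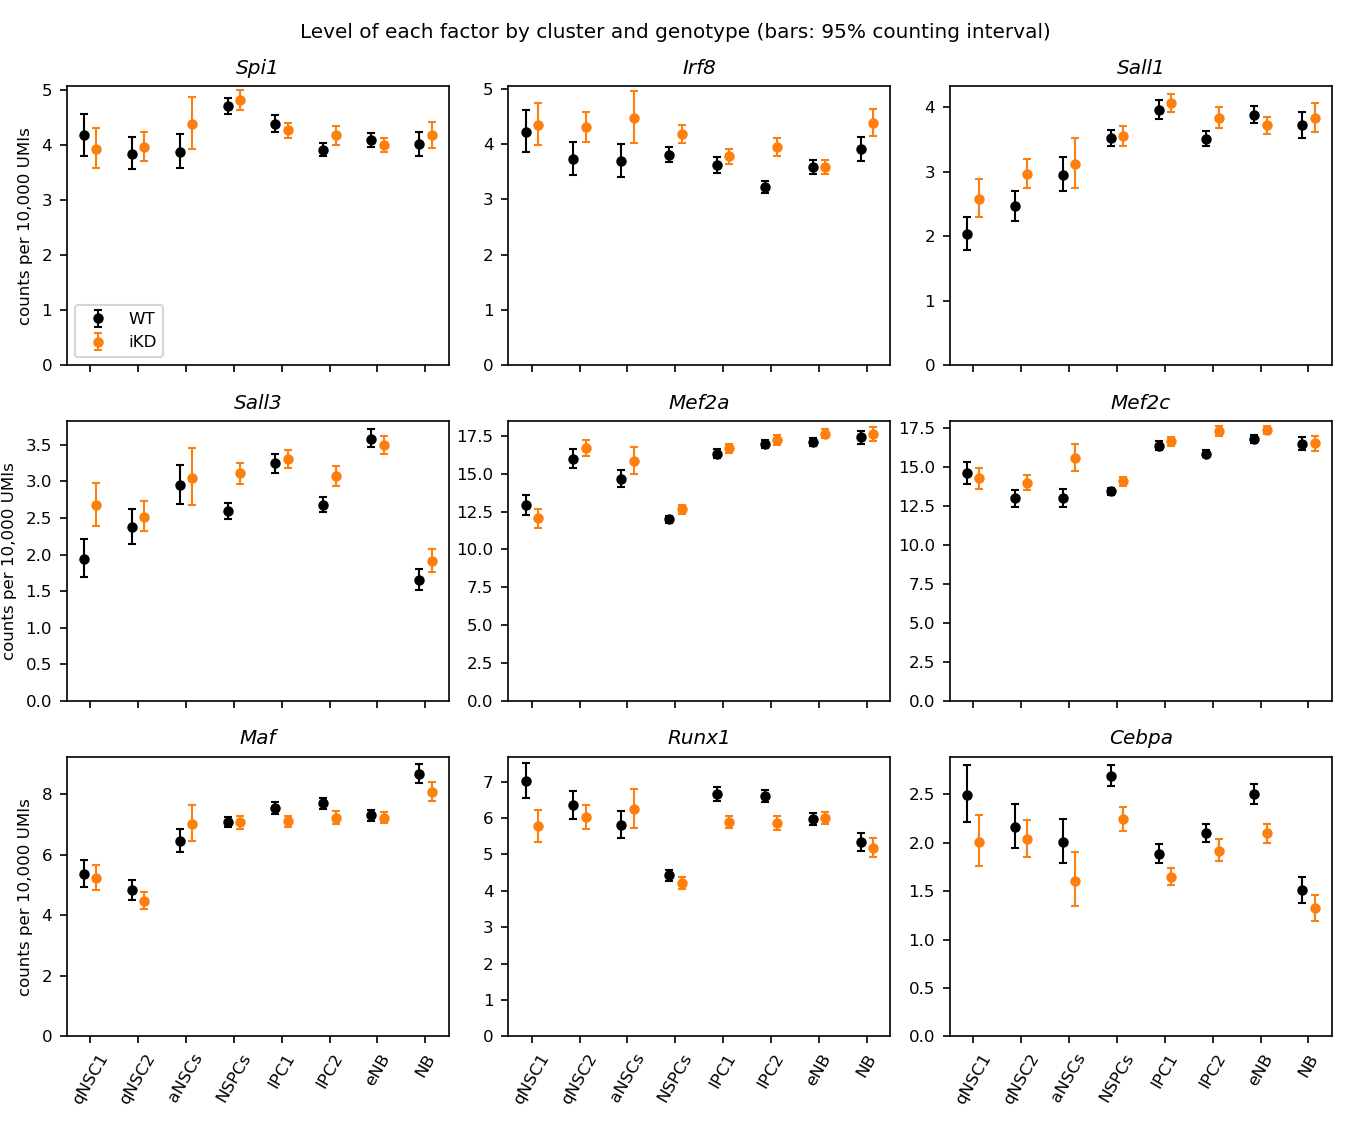
Level of each factor (counts per 10,000 UMIs, each axis from 0) in the 8 clusters, for the WT library (black) and the iKD library (orange), with 95% counting intervals. Spi1 and Irf8 are nearly flat, Sall1 is lowest in qNSC1 (2.03 and 2.58), Sall3 is lowest in NB, Maf is highest in NB (8.66 and 8.07), and the iKD points of Cebpa lie below the WT points in every cluster.

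By the likeness of their levels across the 8 clusters (Pearson's r of log2 levels, among the 3824 genes whose level was 0.5 or more), the genes nearest to each factor were mostly not transcription factors. Nearest to Spi1 were Cnpy3 (r = 0.99), Cd302 (0.96) and Mtfr1l (0.96), and to Irf8 were Hvcn1 (0.96), Fam3c (0.94) and Itgb2 (0.92), the shared chain of leukocyte integrins. Nearest to Sall1 were Fam91a1 (0.97), Khdrbs3 (0.97) and Golm1 (0.97), and to Sall3 Zfp770 (0.96), Dnajb4 (0.95) and Gm9725 (0.92). Mef2a was nearest to Rab28, Dyrk1a and Mbd5 (0.99 or more each), Mef2c to B4galt6 (0.98), Slc7a8 (0.96) and Trio (0.95), and Maf to Galnt2 (0.98), Phyhd1 (0.98) and Prpsap2 (0.98). Runx1 was nearest to Fbxw11 (0.94), Ranbp2 (0.93) and Lpp (0.91), and Cebpa to Ndfip1 (0.92), Sub1 (0.88) and Gm26532 (0.88). With 8 points taken from 3824 genes such values arise readily: once IN1 and IN2 were added, at most 1 of the 3 genes was kept for any factor.

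No factor differed by 1.2-fold between genotypes. The comparison was made in the 6 clusters that the study compared (qNSC1, qNSC2, aNSCs, NSPCs, IPC1 and IPC2; 3752 WT and 3412 iKD cells), as the log2 of the iKD over the WT level, with a counting interval from the summed UMIs. There is 1 library per genotype, so the difference has no replicate check and no p-value. Of the 9 factors, 0 passed 1.2-fold in either direction, against 5.53% of the 10172 genes that reached a level of 0.05 in either genotype and 2.33% of those that reached 0.5.

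Cebpa, the C/EBP factor of myeloid commitment, came nearest. WT cells had a level of 2.25 and iKD cells of 1.92 (log2 ratio -0.23, interval -0.28 to -0.18), and 3.74% of genes had a lower ratio. It was lower in iKD in 8 of 8 clusters, from -0.32 in aNSCs to -0.09 in qNSC2. The counting interval lay below 0 in 6 of them. These intervals leave out the uneven spread of Cebpa over cells (variance over the mean 1.64), so they are too narrow. Cells scored female gave -0.31 (-0.38 to -0.23) and cells scored male -0.16 (-0.25 to -0.06). Its relative Cebpb, which is induced on activation, also had a lower level in iKD, 2.20 against 2.79 (-0.34, -0.39 to -0.29), but in female cells the ratio was -0.01 (-0.08 to 0.06) and in male cells -0.67 (-0.76 to -0.58).

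Irf8 and Sall3 had the highest ratios. Irf8 was 3.59 in WT and 4.02 in iKD (0.16, 0.12 to 0.20), higher in 7 of 8 clusters with the interval above 0 in 5, and Sall3 was 2.76 and 3.09 (0.17, 0.12 to 0.21), higher in 7 of 8 with the interval above 0 in 4. For Irf8 the ratio was 0.31 (0.24 to 0.38) in male cells and 0.04 (-0.01 to 0.09) in female cells. For Sall3 it was 0.12 (0.04 to 0.20) and 0.17 (0.11 to 0.23). Counting intervals leave out the uneven spread over cells, so they are too narrow for Sall3 (variance over the mean 3.83). The same holds to a lesser degree for Cebpa, Maf, Mef2a, Runx1 and Mef2c, with values of 1.64 to 2.01.

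Markers of another tissue moved with genotype in the same cells. In the 6 clusters the 8 choroid plexus markers summed to 0.153 in WT and 10.6 in iKD, mostly Ttr (0.137 and 10.2, log2 ratio 6.12), followed by Enpp2 (0.0138 and 0.305, 3.73). Ttr, the sex-linked and the mitochondrial genes were then left out of the UMI totals. The ratios were 0.16 for Irf8, 0.17 for Sall3 and -0.23 for Cebpa, as before. This step changes only the totals, of which these genes are a small part, so it could hardly move a ratio. The part of choroid plexus RNA in the ratios was not tested.

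The remaining factors lay within 0.12 of 0 on the log2 scale. Runx1 was 5.89 in WT and 5.45 in iKD (-0.11, -0.14 to -0.08), Maf 7.16 and 6.79 (-0.08, -0.11 to -0.05), Mef2c 14.9 and 15.7 (0.08, 0.06 to 0.10), Sall1 3.48 and 3.67 (0.08, 0.04 to 0.12) and Mef2a 14.9 and 15.5 (0.05, 0.03 to 0.07). Spi1 was 4.28 and 4.35 (0.02), and its interval of -0.01 to 0.06 included 0. The counting intervals are narrow because 4583 to 45723 UMIs lie behind each value. They leave out the uneven spread over cells and the spread between mice, which pooled libraries do not show.

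Sex moved with genotype. Of cells scored as one sex, 51.1% were female in the WT library and 70.8% in the iKD library over the 6 clusters, and in aNSCs 21.5% and 94.1%. In female cells 1 of 9 factors passed 1.2-fold (Cebpa, lower), against 10.1% of all genes, and in male cells 1 of 9 did (Irf8, higher), against 15.9%. The ratio of Runx1 was 0.01 in female and -0.21 in male cells, that of Mef2a 0.12 and 0.02, that of Mef2c 0.06 and 0.15, and that of Sall1 0.01 and 0.18. Maf gave -0.08 and -0.06. Female and male cells of a library come from different mice, so these ratios compare different sets of animals, and the part of sex in the genotype ratios was not tested. The mix of clusters also differed within a sex. NSPCs, where Mef2a was lowest, held 829 of 1765 female WT cells and 656 of 2230 female iKD cells. Within female NSPCs, Mef2a was 12.2 in WT and 12.8 in iKD. The part of this mix in the ratios was not tested.

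**Figure D3:**
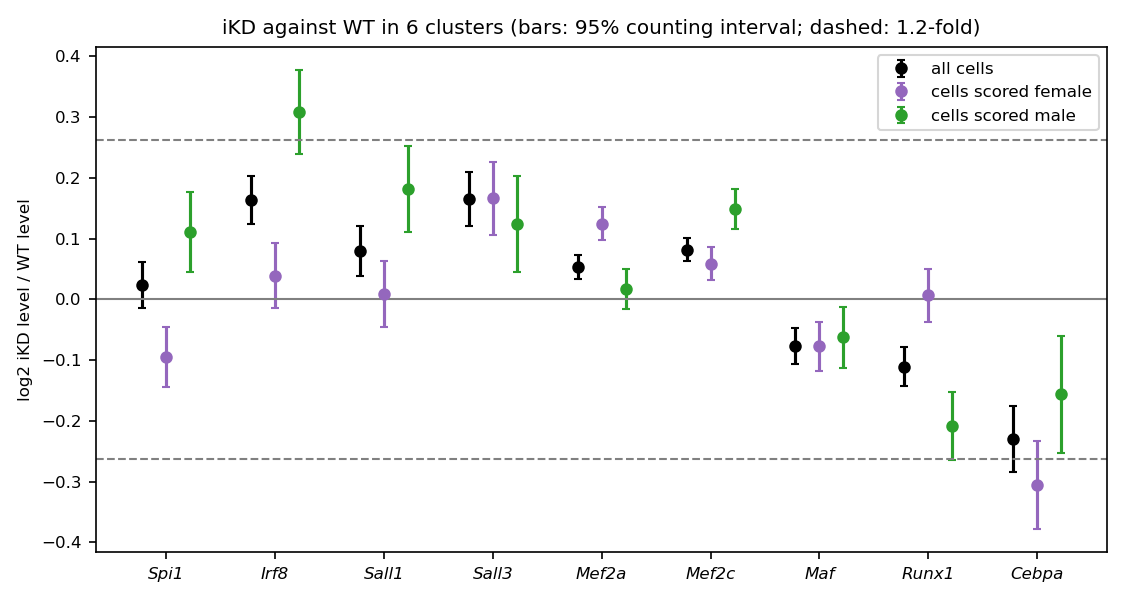
Log2 of the iKD over the WT level (vertical axis) of each factor in the 6 clusters, for all cells (black), cells scored female (purple) and cells scored male (green), with 95% counting intervals and dashed lines at 1.2-fold. All 9 black points lie inside the dashed lines; the female point of Cebpa (-0.31) and the male point of Irf8 (0.31) lie outside.

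Relatives of the factors and other myeloid regulators were read in the same way. Of 27 family relatives 16 reached 0.05 in the 6 clusters, of which 0 were higher and 2 lower by 1.2-fold: Cebpb, given above, and Irf7 (0.0971 in WT, 0.0625 in iKD, -0.56). Of 27 other myeloid regulators 20 were measured, of which 0 were higher and 1 lower. Irf7, a factor of the interferon response, was found mainly in aNSCs, at 1.48, and at most 0.0445 in the other 7 clusters. Within aNSCs the ratio of Irf7 was -0.20 (-0.54 to 0.14), and aNSCs made up 197 of the WT and 108 of the iKD cells. The median log2 ratio was 0.05 for the 9 factors, 0.01 for the relatives and 0.05 for the other regulators, beside 0.01 for all genes tested.

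Between clusters, 8 of 18 relatives and 4 of 20 other regulators passed 2-fold, beside 20.4% of all genes tested and none of the 9 factors. Besides Irf7 (70.0-fold), the relatives were Maff (5.57), Runx2 (3.20), Irf1 (3.12), Sall2 (3.06), Irf9 (2.92), Cebpd (2.62) and Mafk (2.45), all with levels under 2 over the 8 clusters. The other regulators included Klf2 (17.5-fold; 14.2 in qNSC2 and 0.798 in NB), Egr2 (14.2) and Egr1 (4.91), which are early response genes. Zeb2 (level 11.7, 1.46-fold) and Ikzf1 (7.62, 1.72-fold), lineage factors in their own right, stayed under 2-fold like the members. So did Irf2 (2.83, 1.48-fold) and Irf5 (2.31, 1.23-fold).

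The 4 small clusters stood apart from the 8, and the factors differed among them. Their UMIs were set against the UMIs of the 10 microglia markers in the same cells, so that a smaller share of microglia RNA in a cluster does not by itself lower the value. This ratio is not fixed even among the 8 clusters, where it ran from 0.588 (Sall3 in NB) to 1.28 (Sall3 in eNB) times its value over all 8. IN1 (50 cells) stood at 0.73 times the ratio of the 8 clusters for Irf8 to 1.46 times for Sall3.

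The cluster named Astrocytes (134 cells, of which 130 were iKD) held all 8 choroid plexus markers, such as Ttr, in over 50% of its cells at a summed level of 1081, and the microglia markers at 83.6. Here the factors were in 18 (Sall3) to 67 (Maf) of the cells, with levels of 0.433 (Cebpa) to 3.10 (Mef2a). Per microglia marker UMI they stood at 0.65 (Runx1) to 1.202 (Maf) times the 8 clusters, within the range of all factors among those clusters. Spi1 (1.17) and Maf lay above their own highest values there, which were 1.05 for Spi1 (qNSC2) and 1.17 for Maf (NB). Cells with a Spi1 UMI had a median of 210 microglia marker UMIs and cells without one 3.5, and for Irf8 these were 235 and 4. For most factors, the cells with a UMI thus had a high median of microglia marker UMIs. Which cells made these transcripts was not tested, so a UMI there is not read as expression by choroid plexus cells. The exceptions were Maf (medians 15 and 4) and Mef2a (52.5 and 3), whose UMIs were also found in cells with few marker UMIs.

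IN2 (288 cells, median 3102.5 UMIs) and the cluster named Undefined (40 cells, median 2572.5 UMIs) were both shallow and departed in opposite directions. In IN2 the microglia markers summed to 147, against 412 in the 8 clusters, but Mef2a was at 24.7 (23.8 to 25.7), Mef2c at 19.0 (18.2 to 19.9) and Runx1 at 13.2 (12.5 to 13.9), all above their 8-cluster levels. Per marker UMI, Runx1 was 6.29 times, Mef2a 4.27 times, Mef2c 3.29 times and Sall3 3.08 times the 8 clusters. Sall1 was 2.56, Maf 2.25, Irf8 1.78, Spi1 1.35 and Cebpa 1.23 times. The levels of Sall1 (3.24), Maf (5.48), Irf8 (2.43), Spi1 (2.15) and Cebpa (0.989) in IN2 were nevertheless below those of the 8 clusters. The latter were 3.64, 7.17, 3.78, 4.24 and 2.07, while Sall3 was above (3.51 against 2.94). In Undefined the markers summed to 525, Spi1 was at 6.06 (4.67 to 7.74) and Irf8 at 3.83 (2.74 to 5.19). There, Runx1 was at 0.15 times, Mef2a at 0.17 times and Mef2c at 0.35 times the ratio in the 8 clusters, Sall3 was at 0.05 times on 2 UMIs, and Spi1 was at 1.12 times.

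The factors with the longest genes thus stood highest in IN2 and among the lowest in Undefined, relative to the markers. On GRCm38 (GENCODE M21), Runx1 spans 225 kb (chromosome 16, 92601466 to 92826149), Mef2c 163 kb (chromosome 13, 83504034 to 83667080) and Mef2a 142 kb (chromosome 7, 67231163 to 67372858). Spi1 spans 33.4 kb (chromosome 2, 91082390 to 91115756), Maf 24.9 kb (chromosome 8, 115682942 to 115707794), Sall3 20.4 kb (chromosome 18, 80966376 to 80986771), Irf8 20.3 kb (chromosome 8, 120736358 to 120756694) and Sall1 16.9 kb (chromosome 8, 89027235 to 89044162). Cebpa spans 2.64 kb (chromosome 7, 35119293 to 35121928). Sall3 is the exception, with a short gene that went with the long ones in both clusters.

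The same was seen over all genes. Against the 8 clusters, the 758 genes that span at least 100 kb (level of at least 0.5) had a median log2 difference in level of 0.86 in IN2 and -2.13 in Undefined, and the 731 genes under 10 kb -1.52 and 0.76. Malat1, an RNA kept in the nucleus, was at 334 in IN2 and 5.83 in Undefined, beside 243 to 277 in the 8 clusters, and mitochondrial transcripts made up 0.554% and 1.18% of the counts, beside 0.777% to 0.998%. What part nuclear RNA has in the levels of the factors was not tested. Adding IN1 and IN2 to the comparison of clusters took the factors past 2-fold from 0 to 5 (Spi1, Sall3, Mef2a, Runx1 and Cebpa), beside 69.3% of all genes.

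**Figure D4:**
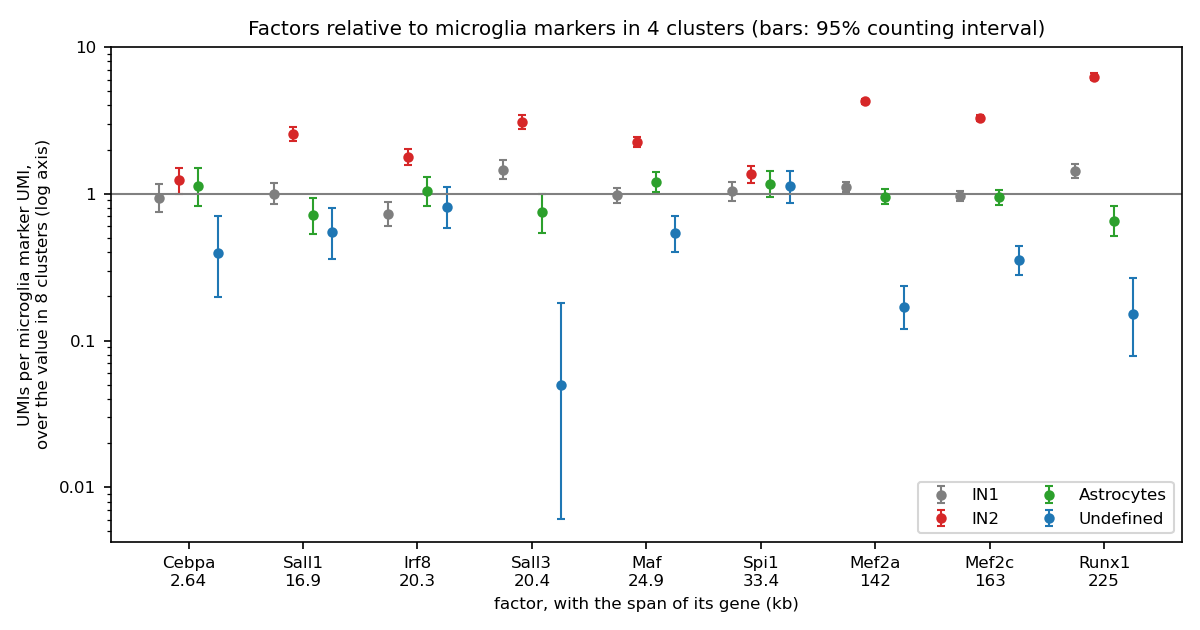
UMIs of each factor per UMI of 10 microglia markers, divided by the same value in the 8 large clusters (vertical axis, log scale; line at 1), for IN1, IN2, Astrocytes and Undefined, with 95% counting intervals and the factors ordered by gene span in kb. IN1 and Astrocytes lie between 0.65 and 1.46, IN2 reaches 6.29 for Runx1, and Undefined is at 0.15 for Runx1, 0.05 for Sall3 and 1.12 for Spi1.

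Levels in female and male cells of one genotype differed by at most 0.25 on the log2 scale over the 8 clusters. In WT, female cells held more Sall3 (3.01 against 2.53; 0.25, 0.19 to 0.31), Irf8 (3.81 against 3.32; 0.20), Sall1 (3.76 against 3.30; 0.19), Spi1 (4.40 against 3.93; 0.16) and Cebpa (2.31 against 2.09; 0.14), and less Runx1 (5.63 against 6.12; -0.12). In iKD, Sall3 was again higher in female cells (3.18 against 2.82; 0.17, 0.11 to 0.24), whereas the intervals of Spi1, Sall1 and Cebpa included 0. Sall3 was the only one of the 9 whose interval lay above 0 in both libraries.

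Female and male cells sat in different clusters, however. IPC2 held 1683 of the 2963 male cells and 125 of the 6593 female cells, while eNB and IPC1, where Sall3 was highest, held 1958 and 1722 of the female cells. Within clusters, a comparison chosen after the data were seen, Sall3 was higher in female cells in 6 of 8 clusters in WT and in 6 of 8 in iKD, with the interval above 0 in 4 and 4 and below 0 in 0 and 0. Those in iKD included aNSCs, where only 6 male cells with 6 Sall3 UMIs were left (1.19, 0.05 to 2.65). NSPCs were the only cluster with the interval above 0 in both libraries, at 2.63 against 2.15 in WT (0.29, 0.14 to 0.45) and 3.23 against 2.81 in iKD (0.20, 0.01 to 0.39). Counting intervals leave out the uneven spread over cells, and Sall3 had a variance over the mean of 3.45 in NSPCs. Its intervals between the sexes, here and over the 8 clusters, are therefore too narrow. In IPC1 both intervals included 0 (-0.11, -0.30 to 0.08 in WT; 0.08, -0.17 to 0.33 in iKD), and in WT IPC2 only 9 female cells were left (-0.68, -1.75 to 0.20).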

How the data were processed

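EYFP+ DG cells of 5 WT and 5 iKD mice were pooled into 1 library per genotype on the 10X Genomics platform and sequenced. Per the labels and the study's methods, the authors processed reads with Cell Ranger 7.0.1 and filtered, normalized and clustered cells with Seurat 4.1.1; whether reads in introns were counted is not given in the sources used here, and the build listed in the submitters' processing notes is a human one, so no coordinate was taken from the files. The authors deposited 12 tables, 1 per cluster, of natural log values, ln(1 + counts per 10,000 UMIs). All 32261786 values above 0 came out as whole UMIs (within 0.01), for 32285 genes in 10804 cells, which carried 1004 to 3999 detected genes. No column was left out.

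Levels, folds and intervals were computed with Python 3.11.15, NumPy 2.4.6 and SciPy 1.17.1, with a pseudocount of 0.01 and a level floor of 0.05. The recovery of UMIs and the ratio between genotypes were tested on simulated data. The intervals, the thinning and the scoring of sex were not. Each genotype has 1 library, so no p-value is given, and intervals cover counting error in UMIs only. Doublets were not called; a repeat without the top 5% of cells by detected genes was made instead. Cells were thinned to 4500 UMIs, the largest multiple of 500 that 90% of cells of each genotype reached. The factors and gene lists were chosen with earlier results of these data known. Named from the lists were the 3 genes with the highest level in each and those past 1.2-fold between genotypes or 2-fold between clusters (at most 8), and for each factor the 3 genes most alike over clusters; some of these are not reported here. Promoters were read from RefSeq (GRCm38.p6) and gene spans from GENCODE M21 (GRCm38).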

Additional observations from a re-analysis of the deposited data

Results flagged for a closer look

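Effects in opposite directions in 2 groups of cells, with counting intervals on either side of 0, were found for 6 of the genes named. None of these differences was tested, since each genotype has 1 library and the sexes are different mice. The log2 ratio of iKD over WT of Spi1 in the 6 clusters was -0.094 (-0.14 to -0.04) in cells scored female and 0.11 (0.04 to 0.18) in cells scored male. For Irf7 it was 1.03 (0.52 to 1.56) in female and -2.01 (-2.75 to -1.35) in male cells; aNSCs, which held most of its UMIs, were 21.5% female in WT and 94.1% female in iKD.

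The log2 ratio of female over male cells in the 8 clusters was opposite in the 2 libraries for 4 factors. For Irf8 it was 0.20 in WT and -0.10 in iKD, and for Runx1 -0.12 in WT and 0.058 in iKD. For Mef2a it was -0.053 in WT and 0.029 in iKD, and for Mef2c 0.053 in WT and -0.056 in iKD. Female and male cells sat in different clusters, so single clusters were also read, after the data were seen. Female cells held more Irf8 in 8 of 8 clusters in WT and 2 in iKD, and more Runx1 in 2 and 6. For Mef2a these counts were 4 and 7 and for Mef2c 5 and 3, with intervals on both sides of 0 in each library.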

How the results depend on the processing

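The count of factors past 1.2-fold between genotypes was 0 in 11 of 13 alternatives. It was 1 in female cells only (Cebpa, lower) and 1 in male cells only (Irf8, higher), which use fewer cells of different mice. The count past 2-fold between clusters was 0 with a pseudocount of 1, in iKD cells only, without the cells with the most detected genes, thinned, and at a level of at least 0.5. It was 1 with summed UMIs scaled as CPM, 1 in WT cells only, 1 in female cells only and 1 in male cells only, each time Sall3, which stood at 1.98-fold in the main comparison, and 5 with IN1 and IN2 added. The 2 comparisons within a sex between clusters were chosen after the data were seen. Of the log2 ratios, 2 changed sign: Spi1 (-0.09 in female cells, and 2 of its 12 alternatives in all) and Runx1 (0.01 in female cells). Over its 12 alternatives Cebpa ranged from -0.31 to -0.16, Irf8 from 0.04 to 0.31, Sall3 from 0.09 to 0.18 and Maf from -0.10 to -0.03. Genes called over all genes ranged from 0.187% with a pseudocount of 1 to 15.9% in male cells between genotypes. Requiring 2 UMIs in place of 1 lowered the share of cells most for Cebpa, from 66.6% to 38.5%. No paired analysis was possible because each genotype has 1 library and no replicate number.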
